A study of Caenorhabditis elegans with 2 samples.

Results

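The tRNA genes on chromosome X of Caenorhabditis elegans are the 276 genes there that the Ensembl annotation of assembly WBcel235 (ce11) gives the biotype tRNA. They make up 45.1% of the 612 nuclear tRNA genes, while X holds 17.7% of the nuclear genome. They are defined by annotation and not by any measured value, though they were chosen with earlier results of these data known. Each was asked whether a peak of AKIR-1::GFP chromatin immunoprecipitation had its summit near the start, from 500 bp before to 100 bp after it. Of the 276 genes, 38 had such a summit in the list that the authors thresholded on the irreproducible discovery rate (IDR). In the list called from the pooled replicates 168 had one, and 118 had one in the separate lists of both replicates.

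The chromatin came from whole worms of strain IG1654, which carry the transgene frSi12 on chromosome II, made from the construct pNP157. It expresses AKIR-1 with a C-terminal GFP-FLAG tag from the akir-1 promoter (akir-1p). Populations of pooled males and females were synchronised by bleaching and starvation of the first larval stage and collected as young adults of 70 hours. A single group was sampled, in 2 biological replicates with the numbers 3 and 4, without an untagged or input sample among them. Sheared fragments of 200 to 800, a range the labels give without a unit, were precipitated with an antibody against GFP, and whole worms mix many tissues, so a gene's signal cannot be assigned to a cell type. The lists hold positions and scores and no read counts, so depth is unknown, and intervals below are exact binomial 95% intervals that cover counting error over genes alone.

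Transfer RNA genes are transcribed by RNA polymerase III. Their promoter lies inside the gene: the factor TFIIIC recognises the A box near the start and the B box in the part that becomes the T arm, then places TFIIIB just upstream, which recruits the polymerase. Transcription ends at a short run of T after the gene. Identical tRNA genes are repeated many times in animal genomes, and the worm X chromosome is rich in them. Akirins are small nuclear proteins that bridge transcription factors and chromatin remodelling complexes in animals.

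The letters of the genes and the promoter elements inside them are shown for the sequences on which the results turn, read from the RefSeq assembly WBcel235 5′ to 3′ on the strand of the gene, with the A box and B box in capitals where the searched patterns were found. C04A11.t1, a leucine gene with anticodon CAA and an intron, had the highest signal value of all 276. F15G9.t1 stands for the alanine TGC sequence, which had summits in the filtered list at each of its 3 genes on X, and F15G9.t2 for the neighbouring alanine AGC sequence. F46G11.t2 (proline TGG) and C06G1.t1 (histidine GTG) stand for sequences present in many genes of which few had such a summit. C14F11.t1 (arginine ACG) and C04E7.t1 (leucine AAG) stand for the largest groups whose sequence occurs on X and nowhere else among the nuclear tRNA genes.
C04A11.t1: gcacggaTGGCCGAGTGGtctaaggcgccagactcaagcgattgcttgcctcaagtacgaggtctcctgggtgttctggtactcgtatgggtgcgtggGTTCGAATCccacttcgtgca
F15G9.t1: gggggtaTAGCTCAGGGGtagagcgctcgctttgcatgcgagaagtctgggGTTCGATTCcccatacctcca
F15G9.t2: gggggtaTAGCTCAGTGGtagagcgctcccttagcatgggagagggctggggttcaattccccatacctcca
F46G11.t2: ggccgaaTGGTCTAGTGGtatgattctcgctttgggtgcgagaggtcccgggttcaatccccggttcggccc
C06G1.t1: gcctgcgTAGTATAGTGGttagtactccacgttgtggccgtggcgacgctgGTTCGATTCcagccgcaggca
C14F11.t1: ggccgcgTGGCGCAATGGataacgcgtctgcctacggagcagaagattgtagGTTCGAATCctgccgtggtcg
C04E7.t1: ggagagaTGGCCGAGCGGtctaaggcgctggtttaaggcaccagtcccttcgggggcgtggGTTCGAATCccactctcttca

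The A box pattern was found in 270 of the 276 genes (97.8%, against 96.4% of the 336 nuclear tRNA genes off X). A B box of the letters GTTCGANNC, searched on the gene's own strand, was in 200 (72.5%, against 71.7% off X), and the looser form GNTCNANNC, which includes the first, was in 273 (98.9%, against 98.2%). A run of at least 4 T within 30 bases after the gene was in 273 (98.9%, against 98.8%). F15G9.t2 and F46G11.t2 are among the genes whose B box has only the looser letters, so no B box is in capitals there. The spliced sequences of F15G9.t1 and F15G9.t2 differ at 7 of 72 positions.

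An IDR-thresholded summit is the summit of a peak that passed the authors' threshold on the irreproducible discovery rate. Such a summit lay at 38 of the 276 genes (13.8%, 9.93 to 18.4). Among all 46926 annotated genes the share was 0.925%. It was 1.01% (0.767 to 1.30) for the 5746 other genes on X, with 58 genes, and 0.769% (0.477 to 1.17) for the 2731 protein-coding genes among them. Off X, 21 of 336 nuclear tRNA genes had such a summit (6.25%, 3.91 to 9.40), an interval that ends below the lower bound for X. These intervals count genes as independent, although some neighbours shared a peak. The chromosomes differed among themselves: the share was 9.38% (3.52 to 19.3) on III, 9.09% (3.41 to 18.7) on I, 7.04% (2.33 to 15.7) on IV, 3.51% (0.428 to 12.1) on II and 2.56% (0.312 to 8.96) on V, and the intervals of I, II, III and IV overlap that of X. Small nucleolar RNA genes on X, another short gene class, had 2 of 33 (6.06%, 0.743 to 20.2).

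With the pooled list the share was 60.9% (54.8 to 66.7), where all annotated genes gave 21.9%. The replicate 3 list gave 158 genes (57.2%, 51.2 to 63.2) against a background of 21.3%, and the replicate 4 list 159 (57.6%, 51.5 to 63.5) against 22.1%. A summit in both replicate lists was found for 118 (42.8%, 36.8 to 48.8), where all genes gave 9.87%, nuclear tRNA genes off X 33.9% (28.9 to 39.3) and other X genes 14.9% (14.0 to 15.9). Off X 52.4% of tRNA genes (46.9 to 57.8) had a pooled summit, so the intervals of the X and off-X shares meet in the pooled list. Chromosome III stood above X there, with 71.9% (59.2 to 82.4) in the pooled list and 45.3% (32.8 to 58.3) in both replicates. In each replicate the 400 strongest peaks, as many as the IDR-thresholded list holds, reached 32 of the X tRNA genes in replicate 3 and 30 in replicate 4, with 17 genes in common.

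The gap between X tRNA genes and other X genes was wide from the strongest peaks on. The 200 strongest pooled peaks reached 6.52% of tRNA genes on X (3.91 to 10.1), 2.08% of those off X (0.842 to 4.25) and 0.452% of other X genes. The 400 strongest, as many as the IDR-thresholded list holds, gave that list's shares of 13.8%, 6.25% and 1.01%. At these genes the list thus equalled a cut on pooled signal. With 1000 peaks the shares were 23.9% (19.0 to 29.4), 14.0% (10.5 to 18.2) and 2.23%. With 10000 peaks they were 45.7% (39.7 to 51.7), 35.1% (30 to 40.5) and 13.8%. The intervals of tRNA genes on X and off X met at 200 and at 10000 peaks and lay apart at 1000.

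**Figure D1:**
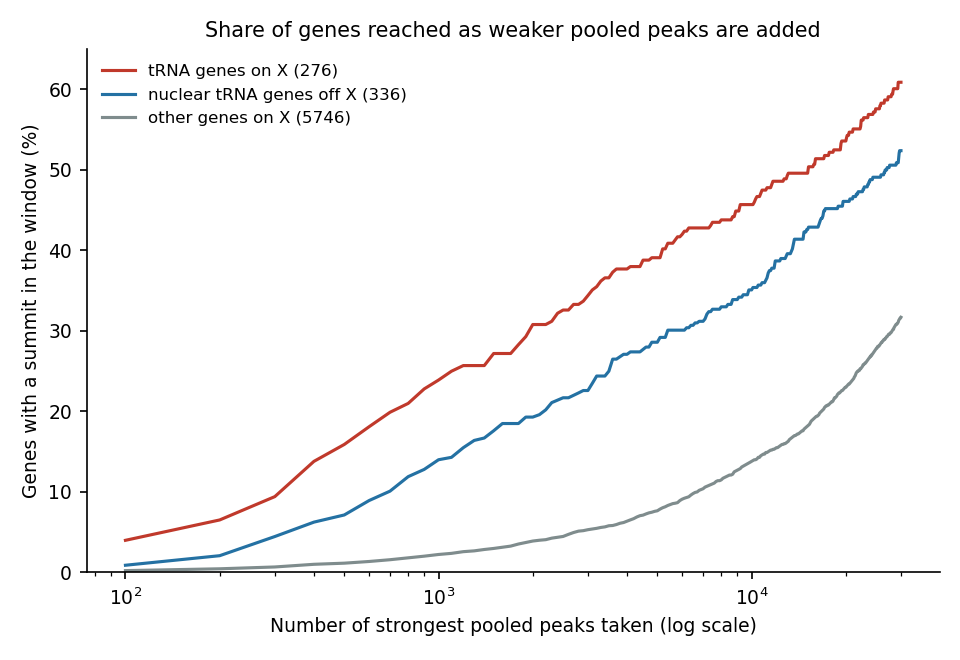
Percentage of genes with a summit in the window (vertical axis) against the number of strongest pooled peaks taken (log scale), for tRNA genes on X, nuclear tRNA genes off X and all other genes on X. The curve of tRNA genes on X lies highest throughout and ends at 60.9%, against 52.4% and 31.7% for the others.

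The 38 genes stood at 31 peaks, since 7 peaks were shared by neighbouring genes. These were 32.0% of the 97 IDR-thresholded peaks on X. Their signal values, which are the authors' own on an unstated scale and serve here to describe and rank peaks within a list, ran from 109 to 243 with a median of 132. The other IDR-thresholded peaks on X had the same median and reached 280. A tRNA start was the annotated start nearest to the summit at 26 of the 31 peaks, and 17 had no start of another gene class in reach. Protein-coding starts shared 2 of them: C28G1.2 and sec-15, which encodes an exocyst subunit, at C28G1.t1, and C11E4.8 at C11E4.t1. The remaining peaks with another start in reach had starts of genes annotated as ncRNA, such as F15G9.8 at F15G9.t1. The ncRNA and protein-coding genes at these peaks count among the 58 other X genes, so that group is not separate from the tRNA genes.

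C04A11.t1, from 13665555 to 13665673 on X in no protein-coding gene, had the peak of highest signal. Its signal value was 150 in replicate 3, 92.0 in replicate 4 and 243 in the pooled list, where it ranked 33 among the 30000 peaks. The summit lay 24 bp after the start.

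M02F4.t1 and M02F4.t2, a glycine TCC and a glutamate CTC gene that point away from each other (3035976 to 3036235), shared a summit between them. It had 115 in replicate 3, 93.2 in replicate 4 and 209 in the pooled list. C28G1.t1, a glutamate TTC gene, followed with 109, 90.8 and 202. These genes were high in both replicates.

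F15G9.t1 and F15G9.t2, an alanine TGC and an alanine AGC gene in line inside him-4, which encodes the matrix protein hemicentin, shared a peak of 97.2 in replicate 3, 102 in replicate 4 and 192 in the pooled list. The serine genes C53C7.t2 (CGA) and C53C7.t1 (AGA), which point away from each other, shared a peak of 112, 78.8 and 185. R01H5.t1, a threonine TGT gene, had 91.8, 78.7 and 173. By rank within each list, the F15G9 peak stood higher in replicate 4 (49) than in replicate 3 (68). The others stood higher in replicate 3, with ranks of 44 against 132 at C53C7 and 87 against 134 at R01H5.t1.

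The asparagine GTT gene F52H2.t2 had 99.6 in replicate 3, 67.0 in replicate 4 and 170 in the pooled list. R11.t1, a tyrosine GTA gene, had 87.4, 78.9 and 169. ZK678.t1, a leucine CAG gene, had 61.6, 79.2 and 143, so replicate 4 was the higher there. At the cysteine GCA gene F42D1.t1 the replicate 3 value was 95 and the pooled value 149, but the replicate 4 list had no summit in the window. The converse held at C11E4.t1, an alanine AGC gene with 64.2 in replicate 4, 114 in the pooled list and no replicate 3 summit.

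The limit of the IDR-thresholded list fell within a continuous range of pooled signal. Just inside it stood T07H6.t1 and T07H6.t2, both alanine TGC genes, with 109 each, and C03B1.t1, a tryptophan gene, with 112. Just outside stood C02B4.t1, an isoleucine TAT gene, with 106, C03F11.t1, a methionine gene, with 104, the proline TGG pair C48C5.t1 and C48C5.t3 with 102 and F38G1.t2, an aspartate gene, with 101. Those 5 genes outside had summits in both replicates, from 45.0 to 64.4 in replicate 3 and from 34.6 to 58.2 in replicate 4. At C48C5.t1 the strongest summit lay at -130 bp from the start in replicate 3 and at -340 bp in replicate 4 (negative upstream). Replicate 4 had 2 summits in that window. The weaker, of 34.6, was the summit of C48C5.t3, where both replicates had theirs at -49 bp, the same site as in replicate 3.

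Of the 158 genes in the replicate 3 list, 74.7% were in the replicate 4 list, and of the 159 in the latter 74.2% were in the former. Over all annotated genes these shares were 46.4% and 44.7%, and over nuclear tRNA genes off X they were 71.2% and 69.9%. A summit was in replicate 3 alone at 40 genes, in replicate 4 alone at 41 and in neither at 77. Of these 77, 7 had a summit in the pooled list, and 70 were in no list. A gene counted in both when each list had any summit in its window, so the summits need not be at the same site. Across the 118 such genes, the log2 signal values gave a Pearson's r of 0.632 and a Spearman's rho of 0.600. This correlation is across genes, which share libraries and in part summits: 105 distinct pairs of summits gave r = 0.620. Within the 36 genes that were also in the IDR-thresholded list r was 0.260, and within the other 82 it was 0.246. The IDR-thresholded list was derived from both replicates, and at these genes it equalled a cut on pooled signal. The position of its genes is therefore no independent measure.

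**Figure D2:**
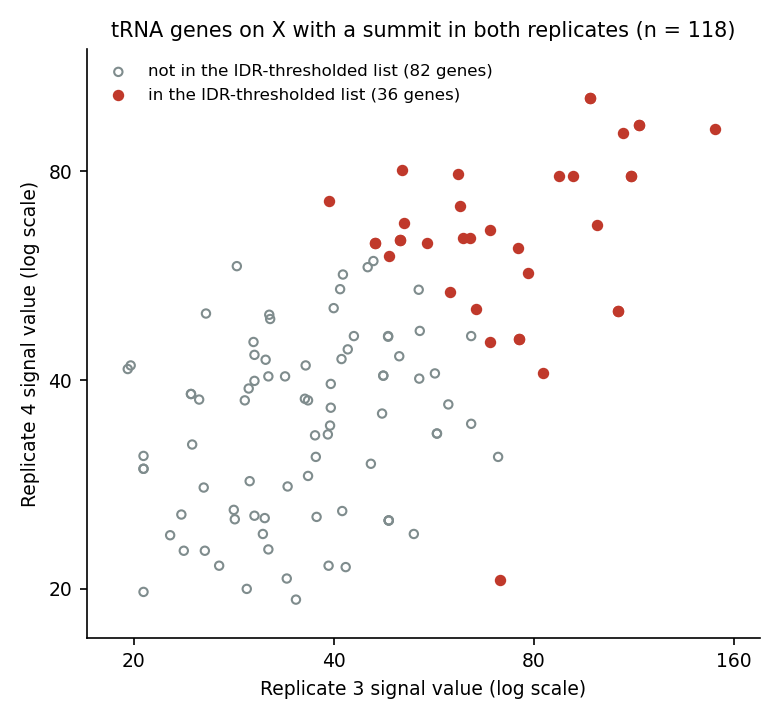
Signal value in replicate 3 (horizontal, log scale) against replicate 4 (vertical, log scale) at the 118 tRNA genes on X with a summit in both lists, the 36 with an IDR-thresholded summit filled. C04A11.t1 is the point farthest right, at 150 and 92.0, and F59C12.t3 the filled point lowest in replicate 4, at 71.1 and 20.6.

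By isotype, the amino acid that RefSeq gives each tRNA, IDR-thresholded summits were at 16 of the 20 isotypes on X and pooled summits at 20. Genes that shared a peak were each counted. Pairs of genes of 1 isotype shared a peak at F15G9 (alanine), F12D9 (cysteine), T10B10 (glycine), K11E4 (lysine), F46G11 (proline) and C53C7 (serine). The M02F4 peak counted for glycine and for glutamate. Isotypes were not counted by peak. Alanine genes had the most, 6 of 13 (46.2%). Cysteine genes had 3 of 7, with a pooled summit at each of the 7, glycine genes 5 of 20 and asparagine genes 2 of 6. Glutamate, lysine and serine had 3 genes each, of 23, 18 and 18. Leucine (17 genes), threonine (14), proline (20) and tyrosine (8) had 2 each. Aspartate, histidine, methionine, tryptophan and valine had 1 each. Among the 400 strongest peaks of each replicate, alanine genes numbered 3 in replicate 3 and 4 in replicate 4, and cysteine genes 3 and 0.

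Arginine is the largest isotype on X with 27 genes, and none had an IDR-thresholded summit. Its highest pooled value, 75.3 at F42G10.t1 (ACG), ranked 1803 and came with 28.5 in replicate 3 and no replicate 4 summit. Among the 400 strongest peaks arginine had 1 gene in replicate 3, C03A3.t1 (ACG) with 67.8 at rank 272, and 0 in replicate 4. C03A3.t1 had no summit in the replicate 4 or pooled list. Off X, 4 of 17 arginine genes had an IDR-thresholded summit. Glutamine (15 genes), isoleucine (13) and phenylalanine (6) on X had none either. Their highest pooled values were 79.4 at F47E1.t1, 106 at C02B4.t1 and 87.2 at T28B4.t1. Arginine and glutamine had no gene among the 1000 strongest pooled peaks, while glycine had 10, alanine 8 and glutamate 7. For glycine the order was the other way round from arginine: 5 of 20 on X and 0 of 35 off X, with pooled summits at 15 and 13 genes. Glutamate had 3 of 23 on X and 0 of 18 off X. With so few genes per isotype these are descriptions and no isotype was compared by a test.

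Other isotypes were led by T14F9.t1 (aspartate, 138), C02F12.t1 (methionine, 140), W03G11.t1 (lysine, 123), F46G11.t2 (proline, 119), F59C12.t3 (valine, 118) and C06G1.t1 (histidine, 116). T14F9.t1 had 39.3 in replicate 3 and 72.6 in replicate 4, and F59C12.t3 had 71.1 and 20.6, so these leading genes were far from even between replicates. RefSeq gave 3 genes no isotype, of which K02D3.t1 had a pooled value of 65.6.

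**Figure D3:**
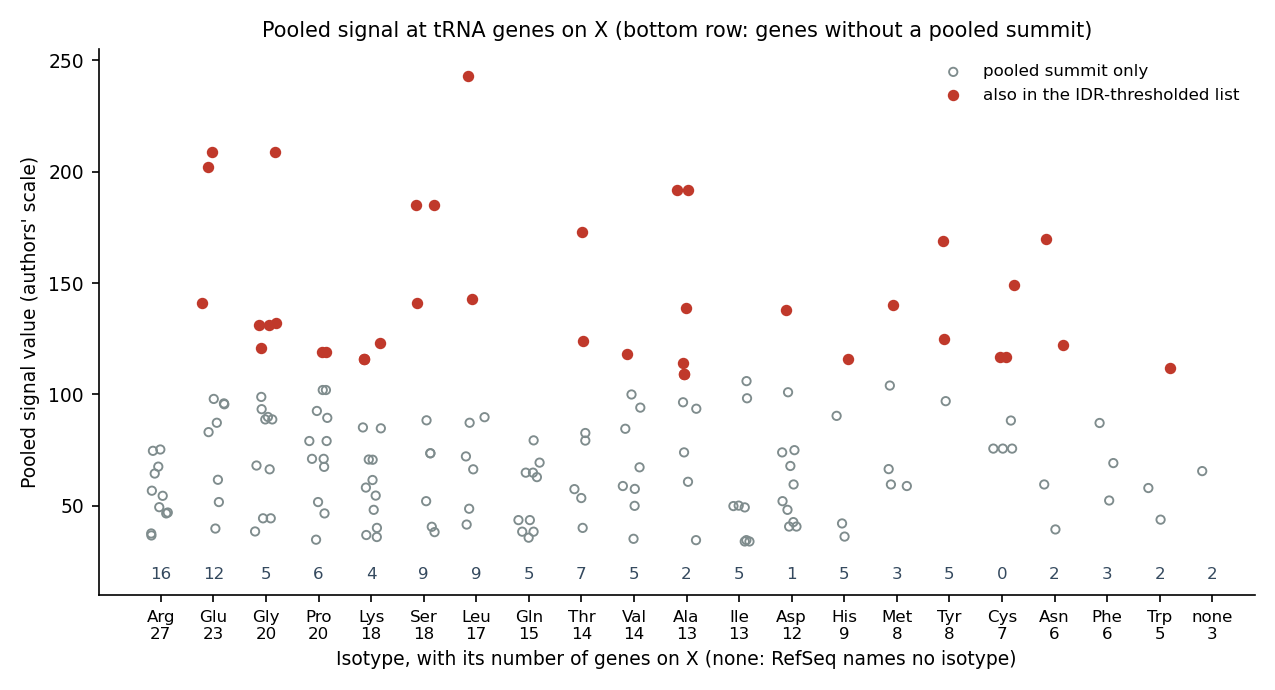
Pooled signal value (vertical, the authors' scale) at each tRNA gene on X with a pooled summit, by isotype from the most genes to the fewest, with genes in the IDR-thresholded list filled and the number of genes without a pooled summit along the bottom. Arginine genes all lie at or below 75.3, while alanine genes reach 192 and C04A11.t1, a leucine gene, reaches 243.

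How often a sequence is repeated went with whether a summit was found. A copy is here another nuclear tRNA gene with the identical spliced sequence. The 276 genes hold 104 sequences. Of the 53 genes without a copy none had an IDR-thresholded summit, which allows a share of up to 6.72%, against 38 of the 223 with copies (17%, 12.3 to 22.6). In the pooled list the shares were 45.3% (31.6 to 59.6) and 64.6% (57.9 to 70.8). Genes of sequences in over 20 genes had 10 of 44 (22.7%, 11.5 to 37.8) in the IDR-thresholded and 86.4% (72.6 to 94.8) in the pooled list. The 400 strongest peaks of replicate 3 reached 2 of the 53 genes without a copy, and those of replicate 4 reached 1. Off X, 4 of 77 genes without a copy had an IDR-thresholded summit (5.19%, 1.43 to 12.8) and 17 of 259 with copies (6.56%, 3.87 to 10.3).

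Genes whose sequence occurs on X alone number 81, of which 53 are the genes without a copy just described and 28 are repeated on X. None of the 81 had an IDR-thresholded summit (up to 4.45%), and for the 28 alone the limit is 12.3%. Of the 195 whose sequence also occurs off X, 38 did (19.5%, 14.2 to 25.8). Among tRNA genes off X, 4 of 102 with a sequence found off X alone had one (3.92%, 1.08 to 9.74). With a sequence shared with X it was 17 of 234 (7.26%, 4.29 to 11.4), so these intervals overlap. Of the 25 repeated off X alone, 0 had one (up to 13.7%). The 400 strongest peaks of replicate 3 reached 3 of the 81 and those of replicate 4 reached 1, and each reached 29 of the 195. In the full lists of both replicates 21 of the 81 (25.9%) and 97 of the 195 (49.7%) had a summit. Pooled summits were at 45.7% (34.6 to 57.1) and 67.2% (60.1 to 73.7). The arginine ACG sequence of C14F11.t1 is in 10 genes on X, of which 5 had a pooled summit, of at most 74.7. The leucine AAG sequence of C04E7.t1 is in 9, of which 3 did, of at most 72.2 at C04E7.t1 itself (39.2 in replicate 3, 33.4 in replicate 4). Of the 28 genes whose sequence is on X alone but repeated there, 13 had a pooled summit.

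Repeated sequence can keep reads from being placed, and how the authors treated reads that fit several places is not given in the sources used here. A fragment with up to 100 bases on either side of each gene was therefore cut into words of 50 bases, and the share found at 1 place in the genome was counted. The median share was 84.8% over the 276 genes, 93.7% for genes without a copy and 84.1% for the 38. Below 70% were 13 genes, with no IDR-thresholded and 1 pooled summit, between 70 and 90% 222 genes with 37 IDR-thresholded summits, and above 90% 41 genes with 1. The part of read placement in these counts was not tested.

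**Figure D4:**
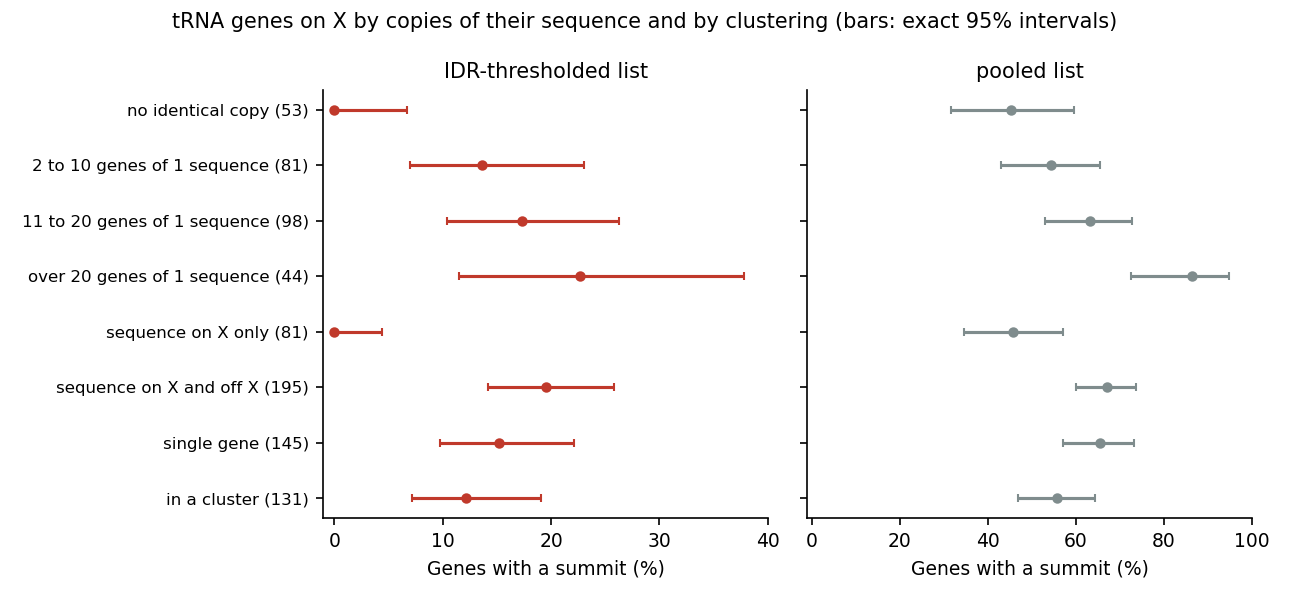
Percentage of tRNA genes on X with a summit (horizontal) in the IDR-thresholded list (left) and the pooled list (right), by how many nuclear tRNA genes share the sequence, whether it occurs off X, and clustering, with the number of genes in parentheses and exact 95% intervals as bars. No IDR-thresholded summit stands at the 53 genes without a copy or the 81 with a sequence on X alone, and 86.4% of genes with over 20 genes of 1 sequence have a pooled summit.

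Genes of the identical sequence differed widely. Of 34 sequences found in 2 or more X genes, 21 had a gene with an IDR-thresholded summit, and 20 of these also had X genes without. The alanine TGC sequence was the exception: F15G9.t1, T07H6.t1 and T07H6.t2 each had a summit, with 97.2, 48.4 and 59.9 in replicate 3, 102, 60.4 and 53.6 in replicate 4, and 192, 109 and 109 in the pooled list. The alanine AGC sequence had 3 of its 7 X genes in the IDR-thresholded list. F34H10.t1 had 139 in the pooled list, 78.4 in replicate 3 and 57.1 in replicate 4. F48E3.t1, with the same sequence, had no summit in any list. Of the 13 proline TGG genes 2 had an IDR-thresholded and 12 a pooled summit. Among the 8 histidine GTG genes C06G1.t1 had 55.2 in replicate 3, 63.0 in replicate 4 and 116 in the pooled list, and F28H6.t2 had no replicate 3 summit, 31.2 in replicate 4 and 42.1 in the pooled list.

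Since the genes themselves do not differ in these groups, the 60 bases before the start are shown for genes of the alanine AGC sequence (F34H10.t1 with and F48E3.t1 without a summit) and of the histidine GTG sequence (C06G1.t1 with and F28H6.t2 without an IDR-thresholded summit), in lower case as no motif was searched there.
F34H10.t1 upstream: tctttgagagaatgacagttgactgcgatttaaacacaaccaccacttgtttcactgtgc
F48E3.t1 upstream: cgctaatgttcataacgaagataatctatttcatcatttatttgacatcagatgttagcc
C06G1.t1 upstream: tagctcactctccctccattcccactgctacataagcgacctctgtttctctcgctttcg
F28H6.t2 upstream: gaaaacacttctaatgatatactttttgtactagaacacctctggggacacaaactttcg

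The content of G and C in the 100 bp before the start was 43.0% at F34H10.t1, 30% at F48E3.t1, 52.0% at C06G1.t1 and 40% at F28H6.t2. Over the 38 genes with an IDR-thresholded summit its median was 46.0%, and over the other 238 it was 38%. Off X the medians were 49% and 43%. Within the alanine AGC sequence, other genes with an IDR-thresholded summit had 41% (F15G9.t2) and 38% (C11E4.t1). Those without such a summit had 44% (T18D3.t1), 41% (T08A9.t1) and 33% (C56G3.t1), so the order was mixed there. Median upstream composition thus differed with the summits on X and off X, and its part in them was not tested. The strict B box letters showed no such difference in the IDR-thresholded list, which held 14.0% of genes with them and 13.2% of the 76 without. In the pooled list the shares were 55.0% and 76.3%, while off X they were 52.3% and 52.6%.

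Summits lay close to the starts. At the 38 genes the median position was 23.5 bp upstream, 33 were within 100 bp of the start, and 14 were after it. With the pooled list the median was 24.5 bp upstream and 129 of 168 were within 100 bp (76.8%). Closeness was not particular to X. At nuclear tRNA genes off X, 19 of 21 IDR-thresholded summits (90.5%) and 128 of 176 pooled summits (72.7%) were within 100 bp. Of those 21, 15 lay after the start, a larger share than the 14 of 38 on X. The strongest pooled summit at the 924 X protein-coding genes that had one lay at a median of 183 bp upstream, with 36% within 100 bp. The 2 replicates gave medians of 33.0 and 27.0 bp upstream at the tRNA genes on X. A tRNA gene here has a median length of 72.0 bp. Each IDR-thresholded peak at these genes was 380 bp wide with the summit at its middle, so how much of a gene it covered follows from the summit position. The peak covered the whole gene at 35 of the 38, part of it at 2, and at K11E4.t6 it ended before the gene began.

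**Figure D5:**
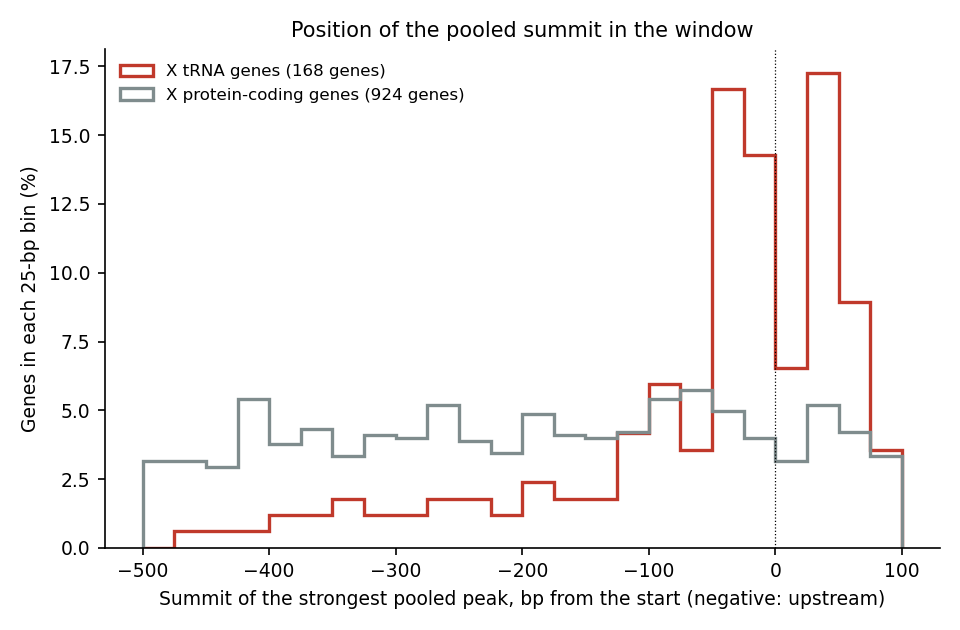
Percentage of genes (vertical) in each bin of 25 bp by the position of the strongest pooled summit relative to the start (horizontal, bp, negative upstream), for 168 tRNA genes and 924 protein-coding genes on X. The tRNA genes gather on both sides of the start, 76.8% within 100 bp, and the protein-coding genes spread over the window, 36% within 100 bp.

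Clusters, taken as runs of tRNA genes with neighbouring starts at most 1000 bp apart, numbered 53 and held 131 of the 276 genes. The median distance between neighbouring starts on X was 13172 bp. Clustered genes had an IDR-thresholded summit in 12.2% (7.15 to 19.1) and single genes in 15.2% (9.76 to 22.1), and a pooled summit in 55.7% (46.8 to 64.4) and 65.5% (57.2 to 73.2), so the intervals overlap. An IDR-thresholded summit was in 9 of the 53 clusters and a pooled summit in 42. The 5 clusters of 4 or more genes hold 26 genes, of which R11.t1 alone had an IDR-thresholded summit (3.85%, 0.0973 to 19.6).

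The clusters of 5 or 6 genes had no IDR-thresholded summit. Their highest pooled values ran from 42.1 to 75.7, where the median over all 168 genes with a pooled summit was 73.6. F22F1.t2 to F22F1.t7 (8154445 to 8156707) are 6 serine, aspartate, methionine and isoleucine genes. F22F1.t3, an aspartate gene, had the highest pooled value, 75, with 43.6 in replicate 4 and no replicate 3 summit. F22F1.t5 and F22F1.t6 shared 59.6, and F22F1.t2 had no summit in any list.

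The 6 genes of the F28H6 cluster (14135045 to 14137010) share the histidine GTG sequence shown above. Apart from F28H6.t2, with its pooled 42.1, the F28H6 cluster genes had no summit in any list. Their unique share of words was low, 78.5% at F28H6.t2 and 0 to 60.1% at the others, and its part in the missing summits was not tested.

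K01A12.t1 to K01A12.t5 (8623603 to 8624532) lie inside K01A12.3, with 3 cysteine genes side by side between arginine genes. The cysteine genes K01A12.t2, K01A12.t4 and K01A12.t5 shared 48.4 in replicate 3, 25.1 in replicate 4 and 75.7 in the pooled list. K01A12.t1 had 31.8 in replicate 4 alone. In the tyrosine cluster of R11.t1 the other members, R11.t2, R11.t3 and R11.t4, had no pooled summit although the 4 genes share 1 spliced sequence.

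Neighbouring genes within 1000 bp formed 78 pairs, some of which shared a summit. Of 25 divergent pairs, which point apart, with starts a median of 162 bp apart, 5 shared an IDR-thresholded and 13 a pooled summit. Of 36 pairs in line, a median of 465 bp apart, 2 and 9 did, and the 17 convergent pairs could share none, since the window ends 100 bp after a start and their starts are at least 232 bp apart. The window reaches farther upstream than downstream, which lets divergent starts share a summit over a longer distance.

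Inside protein-coding genes lie 96 of the 276, in 68 hosts, and 1 of them overlaps a host exon. With the host's strand 9 of 51 had an IDR-thresholded summit (17.6%, 8.40 to 30.9), against the host's strand 7 of 45 (15.6%, 6.49 to 29.5), and outside protein-coding genes 22 of 180 (12.2%, 7.82 to 17.9). Hosts of genes with a summit included lev-9 (T07H6.t1), which helps cluster acetylcholine receptors, and cat-1 (E03E2.t1, 141), the vesicular monoamine transporter. The 5 glutamine genes inside ajm-1, an apical junction gene, had none, and at most 43.6 in the pooled list.

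Along X the genes were uneven. The stretch from 8 to 9 Mb holds 51, of which 4 had an IDR-thresholded and 32 a pooled summit. From 16 to 17 Mb there are 32 genes with 4 and 15, and from 13 to 14 Mb 30 genes with 6 and 23. From 3 to 4 Mb each of the 9 genes had a pooled and 4 an IDR-thresholded summit, and from 6 to 7 Mb the counts were 6 and 3 of 6. No IDR-thresholded summit lay at the 12 genes from 7 to 8 Mb, the 11 from 10 to 11 Mb or the 12 from 11 to 12 Mb.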

How the data were processed

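AKIR-1::GFP chromatin immunoprecipitation peaks of 2 biological replicates were used, in 4 deposited lists on ce11: 1 per replicate, 1 pooled and 1 IDR-thresholded, per the notes the authors deposited with them. The deposited signal value has no stated scale, and the deposited −log10 q-value was converted to a q-value: at the 31 IDR-thresholded peaks it ran from 0.0264 to 0.0525. Which aligner, peak caller and IDR threshold were used is not given in the sources used here. No read counts were given, so depth is unknown. 0 columns of the shared lists were left without a group.

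A summit is the start plus the deposited offset. Genes came from Ensembl release 115, isotypes and sequence from RefSeq WBcel235. A gene was counted when a summit lay within 500 bp before or 100 bp after any of its starts, and its value is its strongest such peak. An anticodon was read from a loop of 7 bases closed by a stem of 5 with at least 4 pairs, and was found for 272 genes. The genes named are those at the 10 highest IDR-thresholded values, the highest of each isotype, the 5 highest outside that list and up to 4 of each of the 3 largest clusters; others were named after their values were seen. Members and lists were chosen with earlier results of these data known. No p-value was computed. Groups were compared by exact intervals at 95%. The window rule and the word count were checked on simulated data. Values were computed in Python 3.11.15 (numpy 2.4.6, pandas 2.3.3), intervals in scipy 1.17.1 and figures in matplotlib 3.10.9.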

Additional observations from a re-analysis of the deposited data

How the results depend on the processing

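The count of 38 genes with an IDR-thresholded summit was 26 to 44 with other windows, any overlap of the peak, or each peak given to the nearest start, and 30 to 32 with 1 replicate's 400 strongest peaks. Shares with 1 replicate were 10.9 to 11.6% on X, 5.65 to 6.55% for tRNA genes off X and 0.766 to 0.922% for other X genes, and 14 to 15 isotypes had a summit. The stronger 200 IDR-thresholded peaks left 18 genes, 6.52% on X, 2.08% off X and 0.452% of other X genes. With all IDR-thresholded peaks and a window from 1000 bp upstream to 200 bp downstream, the share of other X genes was 1.51%. The 4000 strongest peaks left 104 genes in the pooled list, 89 in replicate 3, 89 in replicate 4 and 57 in both; with each peak given to the nearest start 73 were in both. Pearson's r between replicates was 0.336 on positions in the lists, where Spearman's rho is 0.600, and 0.260 within the IDR-thresholded list. In the pooled list 55.7% of clustered genes had a summit. Genes below the median share of unique words of 50 bases had 16.2% IDR-thresholded and 61.0% pooled summits, against 11.4% and 60.7% of the others, and the 12 below it with words of 100 bases had 0% against 14.4%.

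Settings added after the data were seen gave 37.7 to 43.4% of the genes without a copy in 1 replicate list, and 1 to 3 of the 81 genes with a sequence on X alone in 1 replicate, or 2 in the 1000 strongest pooled peaks. In all, 54 settings kept a value within its limits and 19 moved it; the cause was not tested. No paired analysis was possible because the design has 1 group. Limits are the 2 replicates, unknown depth, no input sample among those used, and copies that reads may not tell apart.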
